A study of Mus musculus with 4 samples.

Results

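A set of 9 transcription factor genes known for roles in upper layer and callosal neurons of the cerebral cortex were followed in single cells of the postnatal day 7 (P7) mouse cortex: Cux1, Cux2, Pou3f1, Pou3f2, Pou3f3, Lhx2, Mef2c, Bhlhe22 and Zbtb18. They are 9 of the 19092 genes in the count table and were chosen as a list by name, with earlier results of these data known. Their levels were read in excitatory cells that were gated without them. A cell was kept when at most 10% of its UMIs (unique molecular identifiers, each standing for 1 captured mRNA molecule) came from mitochondrial genes, and it was gated when it held at least 2 UMIs of Neurod1, Neurod2, Sla and Slc17a7 together and at most 1 UMI of Gad1 and Gad2. Of 2413 barcodes, 1598 cells were kept and 503 of those were gated.

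The cells came from dissociated cortex of male mice, 2 per genotype, profiled by Drop-seq, which pairs cells with barcoded beads in droplets and counts the 3′ ends of polyadenylated mRNA. WT mice were Top1 f/f without Cre, and Top1 cKO mice were Top1 f/f; NEX-cre +/-, so both genotypes carried the floxed alleles. NEX-cre is expressed from the Neurod6 locus in postmitotic excitatory neurons of the cortex and hippocampus, so interneurons, glia and vascular cells keep Top1. The Cre allele at Neurod6 was present in cKO mice only, and its own part in the differences between cKO and WT was not tested. The strain label reads C67/Bl6. The cKO cells carried the labels KO2 and KO3 while the cKO samples are titled KO1 and KO2, so they could not be assigned to the 2 cKO samples by title, and they were pooled as 1 cKO sample. With that choice no test across mice was made, and differences are given with 95% counting intervals (exact Poisson for levels, exact binomial for shares and ratios), which cover counting error only. Levels are in CPM, the UMIs of a gene scaled to a total of 1000000 UMIs over the gated cells. They are not divided by gene length, since 3′ counting tags a transcript near its end whatever its length. Ratios are log2 of pooled cKO over pooled WT, scaled with TMM factors (a scaling that assumes most genes do not differ).

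Cortical excitatory neurons are born in sequence, with the deep layers first and the upper layers later. Many upper layer neurons send axons through the corpus callosum to the other hemisphere. The Cux homeodomain proteins mark the upper layers and act on dendrites and spines, while the POU proteins encoded by Pou3f1, Pou3f2 and Pou3f3 (also called Oct6, Brn2 and Brn1) act in the production and migration of upper layer neurons. Lhx2 is a LIM homeodomain factor that specifies cortical identity in progenitors. Mef2c is a MADS-box activator of neuronal differentiation and synapse number. Bhlhe22 and Zbtb18 (also called RP58) are repressors, a basic helix-loop-helix protein and a zinc finger protein, that act in area identity, axon tracts and the maturation of cortical neurons.

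The gate gave 134 of 397 kept cells in WT1, 101 of 287 in WT2 and 268 of 914 in cKO, of which 82 had the label KO2 and 186 the label KO3. Median depth was 4100 UMIs per gated cell for WT1, 3064 for WT2 and 3110 for cKO. Cells of the label KO2 were the shallowest, with a median of 2451 UMIs against 3353 for the label KO3. No barcode was shared between libraries among the gated cells. Top1 itself, the gene deleted in excitatory neurons, stood at 580 CPM in WT1, 565 CPM in WT2 and 152 CPM in cKO, a log2 ratio of -1.98 (-2.26 to -1.73). The 6 excitatory markers that are not gate genes, Neurod6, Tbr1 and Emx1 among them, were all detected, and summed to 1373, 1503 and 1045 CPM in WT1, WT2 and cKO. Not all of them fell. In the same order Neurod6 stood at 713, 722 and 496 CPM, Tbr1 at 112, 120 and 117 CPM, and Emx1 at 40.25, 31.9 and 41.8 CPM. Markers of other cells were also present. The 9 astrocyte markers summed to between 521 and 782 CPM in WT1, WT2 and the cells labelled KO3 but to 1914 CPM in the cells labelled KO2. The 8 oligodendrocyte lineage markers summed to between 140 and 207 CPM in the first 3 and to 1233 CPM in the cells labelled KO2. None of the markers of these lists was at 0 in the cells labelled KO2. Vascular markers were higher in both cKO labels, at 175 and 147 CPM in WT1 and WT2 against 395 and 370 CPM in KO2 and KO3. Inhibitory markers were also higher, at 448 and 513 CPM against 660 and 563 CPM. Microglial markers summed to between 66.3 and 213 CPM and red blood cell markers to between 215 and 563 CPM in any library or label. The part of these markers in the values below was not tested, other than by leaving out the 81 gated cells that held at least 3 UMIs of a glial or vascular marker gate.

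Mef2c and Zbtb18 were the members whose cKO level lay below both WT mice by more than counting error. Both were lower in cells of both cKO labels than in either WT mouse, as were 16.1% of all genes with at least 30 UMIs. The sum of the other 7 genes did not differ beyond counting error. Mef2c and Zbtb18 also had the most UMIs of the members, 8585 and 898 over all gated cells against 110 to 305, so the intervals of their ratios were the narrowest. The 250 bases before the first listed start of these genes are printed here from RefSeq (GRCm38.p6, plus strand, 5′ to 3′), because the pair that stood lowest differed most from each other in CpG content among the members; capitals mark each CpG.

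Mef2c, chr13:83503784-83504033: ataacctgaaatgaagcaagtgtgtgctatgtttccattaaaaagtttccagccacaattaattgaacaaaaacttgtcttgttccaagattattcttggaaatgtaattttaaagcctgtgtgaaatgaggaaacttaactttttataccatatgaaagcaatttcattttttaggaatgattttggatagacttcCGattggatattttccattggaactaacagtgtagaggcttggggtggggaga

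Zbtb18, chr1:177442101-177442350: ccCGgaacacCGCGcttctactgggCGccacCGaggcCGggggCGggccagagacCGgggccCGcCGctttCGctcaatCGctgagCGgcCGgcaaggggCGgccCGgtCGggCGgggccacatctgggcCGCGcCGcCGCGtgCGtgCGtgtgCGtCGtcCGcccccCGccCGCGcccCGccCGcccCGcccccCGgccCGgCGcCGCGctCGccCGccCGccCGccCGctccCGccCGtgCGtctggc

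The Mef2c stretch held 1 CpG and was 33.6% G and C, and 7.87% of 32851 promoters in the RefSeq table held fewer CpGs over the same 250 bases. The Zbtb18 stretch held 47 CpGs and was 84.0% G and C, and 99.8% of promoters held fewer. The other members with an entry, Cux1, Cux2, Pou3f2, Pou3f3 and Lhx2, held between 15 and 40 CpGs before their first listed start, against a median of 6 over all promoters. Pou3f1 and Bhlhe22 had no entry, so 7 of 9 members matched. Mef2c has 2 further listed starts and Zbtb18 has 4, with 6 CpGs or fewer before each, and 3′ counts do not tell which start was used.

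Mef2c (ENSMUSG00000005583, chr13:83504034-83667080 on the plus strand, GENCODE vM21 on GRCm38, 163 kb with 3 to 12 exons in its coding transcripts) was by far the most abundant member, its UMIs numbering 3235 for WT1, 2021 for WT2 and 3329 for pooled cKO. It ranked 8 and 9 among all genes in the WT mice and 15 in cKO. It supplied 80.1%, 79.3% and 75.5% of all UMIs of the members. Its level was 4490 CPM (4337 to 4648) in WT1, 4962 CPM (4748 to 5183) in WT2 and 3396 CPM (3281 to 3513) in cKO. The cells labelled KO2 stood at 2574 CPM and those labelled KO3 at 3735 CPM, so the WT mice and the cKO labels did not overlap. The WT mean was 4726 ± 333 CPM (SD, n = 2), and the log2 ratio of cKO over WT was -0.53 (-0.59 to -0.47), 30.7% lower. Against WT1 alone the log2 ratio was -0.49 and against WT2 alone -0.60, while WT2 over WT1 differed by 0.12. The cKO cells of the 2 labels differed from each other by 0.54, more than the WT mice did. With only the cells labelled KO3 the ratio was -0.38, with only those labelled KO2 it was -0.93, and with a mitochondrial limit of 5%, which left 28 WT1, 43 WT2 and 123 cKO cells, it was -0.29. Without the cells holding glial or vascular markers the levels were 4848, 5020, 2932 and 3825 CPM in WT1, WT2, KO2 and KO3, and the log2 ratio of pooled cKO was -0.51.

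Mef2c was present in nearly every gated cell. It had at least 1 UMI in 97.0% of cells in WT1, 99.0% in WT2 and 92.9% in cKO, and 4, 1 and 19 cells lacked it. With each cell thinned to 1000 UMIs, which removes the difference in depth, these shares were 87.6%, 91.2% and 84.7%. By label the thinned share was 88.9% for KO3, between the WT mice, and 74.9% for KO2. The median cell held 3.29 Mef2c UMIs per 1000 UMIs in WT1, 4.05 in WT2, 3.35 in the cells labelled KO3 and 1.62 in those labelled KO2. The median of the KO3 cells thus lay between the WT mice. In the upper part of the distribution the labels separated from WT. The cell at the 90th percentile held 8.81 and 9.69 per 1000 UMIs in the WT mice, 7.11 in the KO3 cells and 4.91 in the KO2 cells.

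Zbtb18 (ENSMUSG00000063659, chr1:177442351-177450764, plus strand, 8.4 kb, 1 to 4 exons) had 334 UMIs for WT1, 205 for WT2 and 359 for pooled cKO. The antisense gene Gm26801 overlaps it, and the sources do not state whether counting used strand. Its level was 464 CPM (415 to 516) in WT1, 503 CPM (437 to 577) in WT2 and 366 CPM (329 to 406) in cKO. Both cKO labels, at 342 CPM for KO2 and 376 CPM for KO3, lay below both WT mice. The WT mean was 483 ± 28.1 CPM (SD, n = 2), and the log2 ratio was -0.45 (-0.65 to -0.26), 27.0% lower. The ratio was -0.42 against WT1 and -0.51 against WT2, with WT2 over WT1 at 0.09 (-0.17 to 0.35). Zbtb18 was detected in 74.6% of WT1 cells, 67.3% of WT2 cells and 53.4% of cKO cells, and after thinning in 33.8%, 35.0% and 25.8%. The cKO interval of 47.2% to 59.5% before thinning overlapped the WT2 interval of 57.3% to 76.3% at its edge. Without the cells holding glial or vascular markers its ratio was -0.44.

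**Figure D1:**
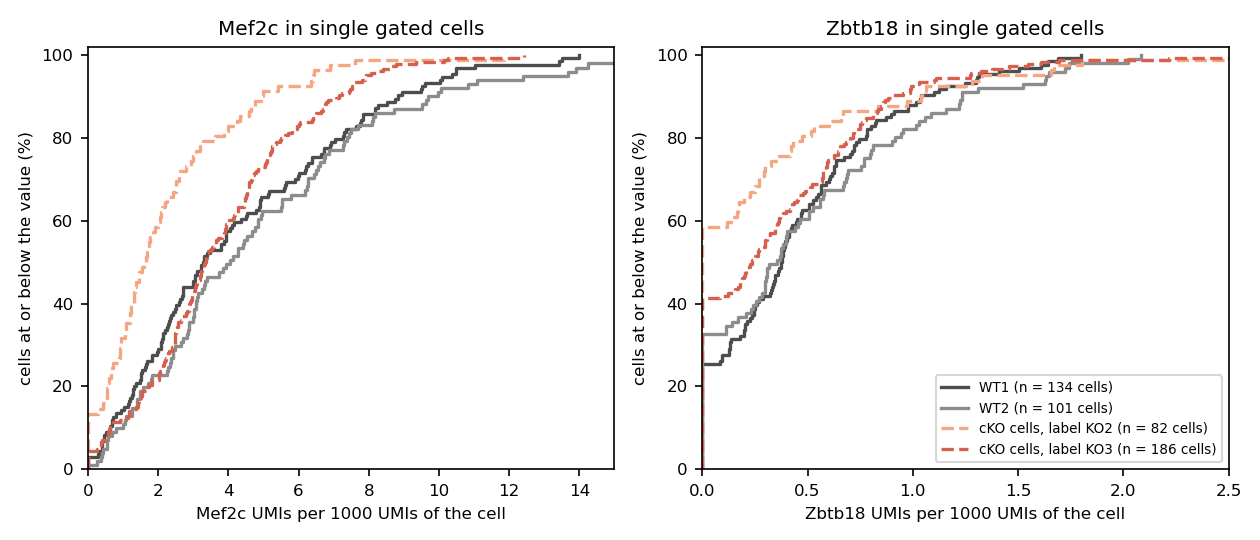
Cumulative share of gated cells (%) against the UMIs of Mef2c (left) or Zbtb18 (right) per 1000 UMIs of the cell, with solid lines for the WT mice and dashed lines for cKO cells by label. The curve of the cells labelled KO2 lies left of the others for Mef2c, and the KO3 curve leaves the WT curves in its upper part, with 7.11 per 1000 UMIs at the 90th percentile against 8.81 in WT1 and 9.69 in WT2.

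The 3 POU genes are single-exon genes of 3.8 kb (Pou3f1, ENSMUSG00000090125, chr4:124656807-124660655, plus strand), 5.6 kb (Pou3f2, ENSMUSG00000095139, chr4:22482780-22488366, minus strand) and 7.4 kb (Pou3f3, ENSMUSG00000045515, chr1:42695768-42703176, plus strand). Together they stood at 308 CPM in WT1, 393 CPM in WT2 and 377 CPM in cKO, so the cKO level lay between the WT mice and the log2 ratio was 0.08 (-0.13 to 0.29). Pou3f2 stood at 107 CPM (77 UMIs) in WT1, 140 CPM (57 UMIs) in WT2 and 152 CPM (149 UMIs) in cKO, a ratio of 0.28 (-0.06 to 0.63) whose interval reaches below 0. The cKO labels lay on opposite sides of both WT mice. The cells labelled KO3 were the highest of all at 179 CPM and those labelled KO2 the lowest at 87.3 CPM, a log2 ratio of KO3 over KO2 of 1.00 (0.40 to 1.72). Without the KO3 cells the ratio to WT turned to -0.50, and without the KO2 cells it was 0.52. Pou3f1 split the same way, at 87.3 CPM (25 UMIs) for KO2 and 146 CPM (101 UMIs) for KO3, while WT1 stood at 124 CPM (89 UMIs) and WT2 at 169 CPM (69 UMIs). The pooled Pou3f1 ratio was -0.19 (-0.55 to 0.15), with -0.73 for the KO2 cells alone and -0.0023 for the KO3 cells alone. When cells with glial or vascular markers were left out, the KO2 cells still stood lowest, at 84.7 CPM for Pou3f1 and 101 CPM for Pou3f2. These rest on 16 and 19 UMIs, and WT1 stood close for Pou3f2, at 113 CPM (63 UMIs). Pou3f3 did not split by label in the whole gate. It stood at 77.7 CPM (56 UMIs) in WT1, 83.5 CPM (34 UMIs) in WT2, 97.8 CPM (28 UMIs) for KO2 and 96.5 CPM (67 UMIs) for KO3, with a ratio of 0.20 (-0.22 to 0.64). Without the cells holding glial or vascular markers the KO2 and KO3 cells stood at 74.1 and 94.1 CPM, on opposite sides of the WT mice at 84.3 and 85.1 CPM, and the ratio was 0.014.

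Cux1 (ENSMUSG00000029705, chr5:136248135-136567490, minus strand, 319 kb) and Cux2 (ENSMUSG00000042589, chr5:121856366-122050102, minus strand, 194 kb) are the longest members and lie on the same chromosome. The Cux1 gene also encodes a Golgi protein, CASP, from some of its transcripts, and counts per gene do not separate the products. Cux1 stood at 70.8 CPM (51 UMIs) in WT1, 101 CPM (41 UMIs) in WT2 and 97.9 CPM (96 UMIs) in cKO. The WT mice differed from each other by a log2 ratio of 0.46 and cKO lay between them, with a ratio to pooled WT of 0.19 (-0.24 to 0.62). Cux2, more restricted to the upper layers, stood at 52.8 CPM (38 UMIs) in WT1, 56.5 CPM (23 UMIs) in WT2 and 49.98 CPM (49 UMIs) in cKO. Its cKO level was below both WT mice but by less than counting error, with a ratio of -0.18 (-0.76 to 0.38). Cux2 had the fewest UMIs of the 9, 11 of them in the KO2 cells.

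Lhx2 (ENSMUSG00000000247, chr2:38339281-38369733, plus strand, 30.5 kb, 3 to 5 exons) stood at 84.7 CPM (61 UMIs) in WT1, 63.8 CPM (26 UMIs) in WT2 and 72.4 CPM (71 UMIs) in cKO, with a ratio of -0.16 (-0.64 to 0.31). Bhlhe22 (ENSMUSG00000025128, chr3:18054174-18057517, plus strand, a single exon of 3.3 kb) stood at 133 CPM (96 UMIs) in WT1, 179 CPM (73 UMIs) in WT2 and 139 CPM (136 UMIs) in cKO, with a ratio of -0.18 (-0.52 to 0.15). In both genes the cKO level lay between the WT mice.

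**Figure D2:**
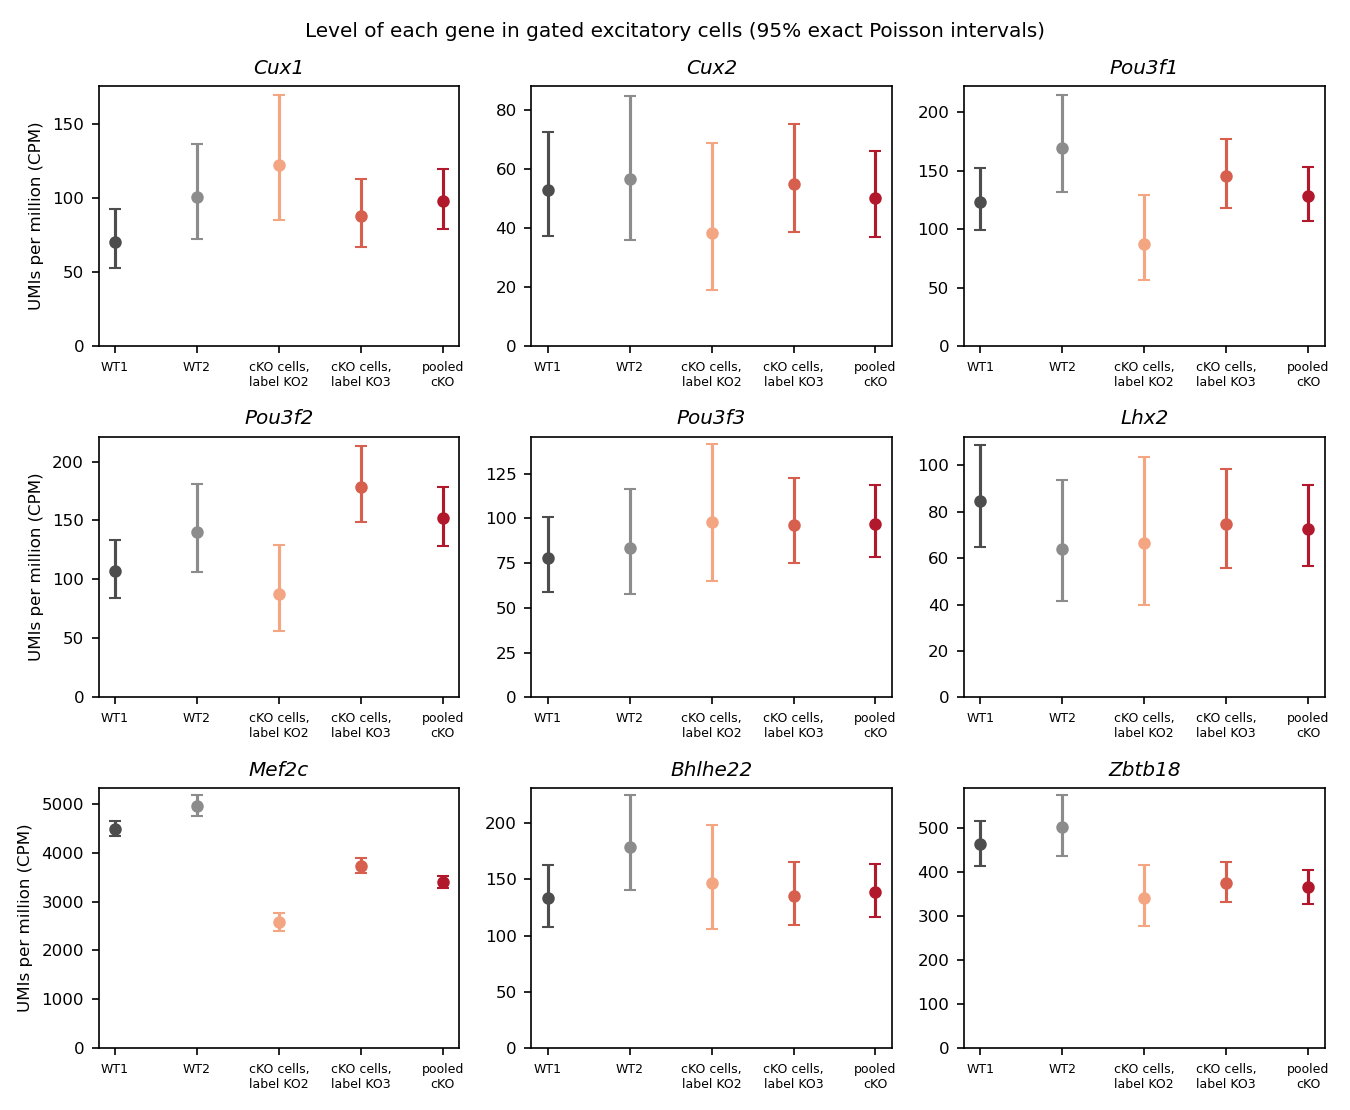
Level of each gene in gated excitatory cells, in CPM, for WT1, WT2, cKO cells of each label and pooled cKO, with 95% exact Poisson intervals. Mef2c and Zbtb18 are lower in the cKO cells of both labels than in both WT mice, and Pou3f3 is higher in both labels with overlapping intervals. For the other 6 genes the ranges of the cKO labels and the WT mice overlap, as for Pou3f2 at 87.3 CPM in KO2 and 179 CPM in KO3 cells.

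All 9 genes passed the minimum of 30 UMIs in the gated cells, as did 8225 genes in all. The cKO level was below both WT mice for 3 members (Cux2, Mef2c and Zbtb18), above both for 2 (Pou3f2 and Pou3f3) and between them for 4. Over all genes tested 26.3% were below both WT mice and 40.5% above both, so the count below both WT mice was near the background and the count above both was under it. On CPM scaled with TMM factors 5 members were below both WT mice, adding Pou3f1 and Bhlhe22, and 2 were above, against 32.6% and 33.2% of all genes. For cells of both cKO labels, 2 members were lower than both WT mice and 1 (Pou3f3) was higher, against 16.1% and 23.3% of all genes. Mef2c alone had a log2 ratio of -0.5 or less and lay below both WT mice, 1 of 9 against 9.30% of all genes; without TMM factors its ratio was -0.46. No member had a ratio of 0.5 or more, against 11.1% of all genes that did and lay above both WT mice. The median ratio was -0.18 over the members and -0.00075 over all genes. Without Mef2c and Zbtb18 the other 7 members summed to 650 CPM in WT1, 793 CPM in WT2 and 737 CPM in cKO, a log2 ratio of -0.0021 (-0.15 to 0.15), while WT2 over WT1 differed by 0.26.

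Top1 is an enzyme that relieves DNA supercoils ahead of RNA polymerase, and the study asked about genes longer than 100 kb. The 3 members over that length spanned most of the range of the ratios, from Mef2c at -0.53 through Cux2 at -0.18 to Cux1, the longest, at 0.19. Their median was -0.18 and that of the 6 shorter members -0.17. Zbtb18, at 8.4 kb, had the second lowest ratio. Over all genes tested the median was -0.035 for 1428 genes longer than 100 kb and 0.0038 for 6760 shorter ones, of which 12.6% and 8.58% had a ratio of -0.5 or less and lay below both WT mice. At any size, 31.7% of the longer and 25.2% of the shorter genes lay below both WT mice.

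**Figure D3:**
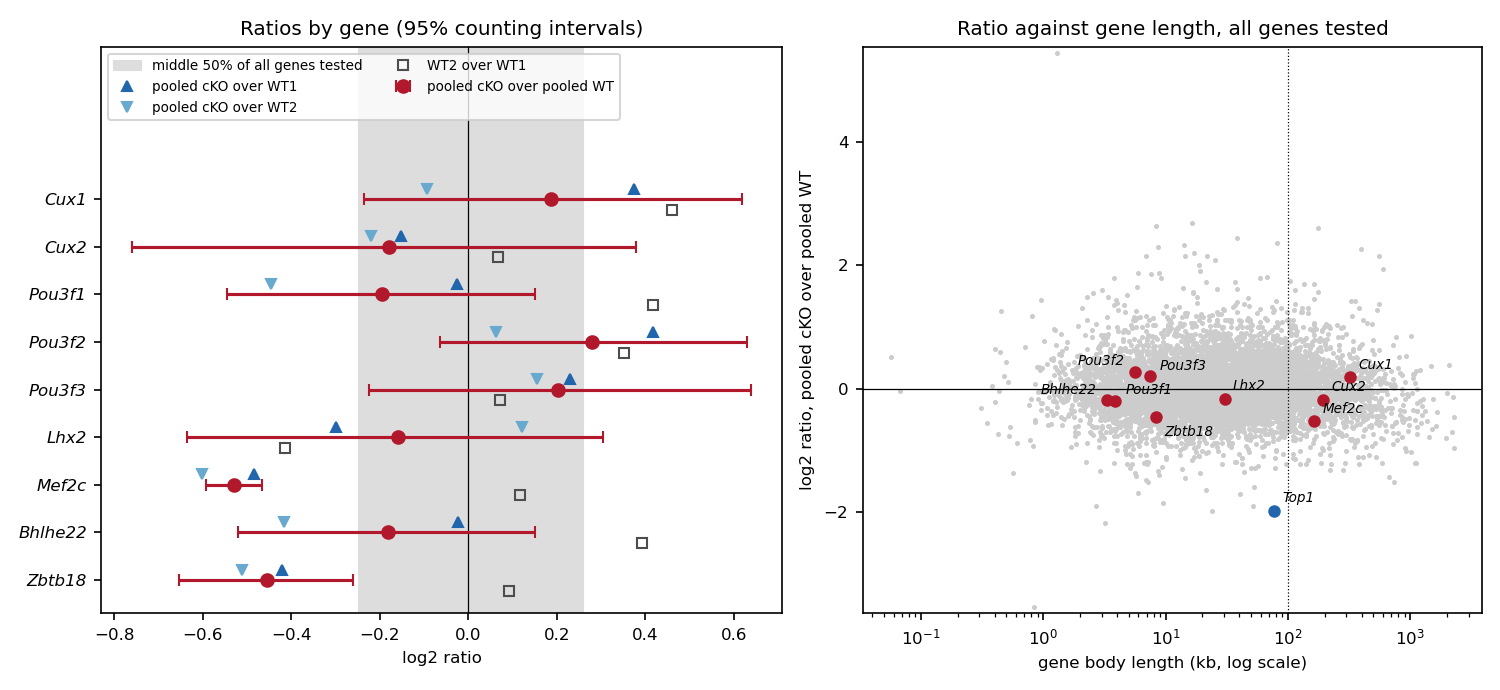
Left, log2 ratios of each gene: pooled cKO over pooled WT with 95% counting intervals (red), over WT1 and WT2 alone (triangles), and WT2 over WT1 (open squares), with the grey band from -0.25 to 0.26 holding the middle 50% of all genes tested. Right, the ratio of pooled cKO over pooled WT against gene body length in kb (log scale) for all genes tested (grey), the 9 genes (red) and Top1 (blue), with a dotted line at 100 kb; Cux1, at 319 kb, lies above 0 and Zbtb18, at 8.4 kb, lies next to Mef2c.

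Apart from Mef2c and Zbtb18, each gene was seen in a minority of gated cells, from 15.5% of 503 cells for Cux2 to 36.6% for Bhlhe22. A WT1 cell held on average 3.69 of the 9 genes, a WT2 cell 3.64 and a cKO cell 3.22. At 1000 UMIs per cell the means were 1.82, 1.97 and 1.78, and the difference between cKO and pooled WT cells was -0.12 after thinning against -0.44 before. By label the thinned means were 1.53 for KO2 and 1.88 for KO3, and the KO3 value lay between the WT mice. Cells in which Mef2c was the only member detected made up 9.70% of cells in WT1, 9.90% in WT2 and 18.3% in cKO before thinning, 28.0% for KO2 and 14.0% for KO3.

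Co-detection was described for the 36 pairs as the cells that held both genes over the cells expected if detection were independent within each library. With all UMIs, every pair was co-detected above expectation, with a median ratio of 1.29 and a range of 1.00 to 1.86, and deeper cells hold more of any gene. After thinning to 1000 UMIs, 14 pairs had at least 10 expected cells, and their ratios ranged from 1.00 to 1.36 with a median of 1.07. All 14 held Mef2c or Zbtb18, the 2 members detected most often, so no other pair could rank here. Among them the 3 highest all paired a POU gene with Zbtb18. Pou3f2 with Zbtb18 reached 25.03 cells against 18.4 expected (1.36), Pou3f1 with Zbtb18 reached 1.31 and Pou3f3 with Zbtb18 reached 1.29. For Pou3f2 with Zbtb18 the ratio was 1.32 in WT1 and 1.38 in cKO. The 3 lowest all held Mef2c, which left little room above expectation because nearly every cell had it: Cux2 with Mef2c at 1.00, Pou3f2 with Mef2c at 1.01 and Pou3f1 with Mef2c at 1.05. With all UMIs, where all 36 pairs had at least 10 expected cells, Cux2 with Pou3f3 was highest at 1.86. There Pou3f2, Pou3f1 and Pou3f3 with Zbtb18 stood at 1.26, 1.25 and 1.27, under the median of 1.29.

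Co-detection was also read against 5 layer genes, a choice made after the count table had been seen. Bcl11b (CTIP2) marks subcerebral neurons of the deep layers. After thinning, the ratio over all libraries was below 1 for each of the 9 genes with Bcl11b. It was below 1 in WT1, WT2 and cKO alike for Cux1, Pou3f1, Mef2c, Bhlhe22 and Zbtb18. It was above 1 in WT1 for Cux2 (1.17), Pou3f2 (1.096) and Pou3f3 (1.33), and in cKO for Cux2 (1.08) and Lhx2 (1.06), on under 10 expected cells each. For Zbtb18 the ratio was 0.75 (29.8 cells against 39.5 expected), with 0.77 in WT1, 0.66 in WT2 and 0.80 in cKO. Bhlhe22 had 0.80 and Mef2c 0.96. Pou3f1 had the lowest ratio, 0.66, on 15.9 expected cells, and Cux2 the highest, 0.98, on 6.80 expected cells. With all UMIs the ratios with Bcl11b ran from 0.87 to 1.07 and lay on both sides of 1. With the other deep layer genes read, Tbr1, Sox5 and Fezf2, the thinned ratios did not all lie below 1. In that order they were 1.05, 1.01 and 0.82 for Zbtb18, 0.75, 1.09 and 1.03 for Bhlhe22, and 0.60, 0.60 and 0.71 for Pou3f1. These rest on 3.32 to 19.8 expected cells. Rorb, a nuclear receptor of layer 4, was co-detected with Zbtb18 in 15.3 cells against 13.0 expected after thinning (1.18), with 1.36 in WT1, 1.29 in WT2 and 0.98 in cKO. Cux2 with Fezf2, a factor of subcerebral projection neurons, had the lowest ratio with all UMIs, 0.49, or 6 cells against 12.2 expected.

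**Figure D4:**
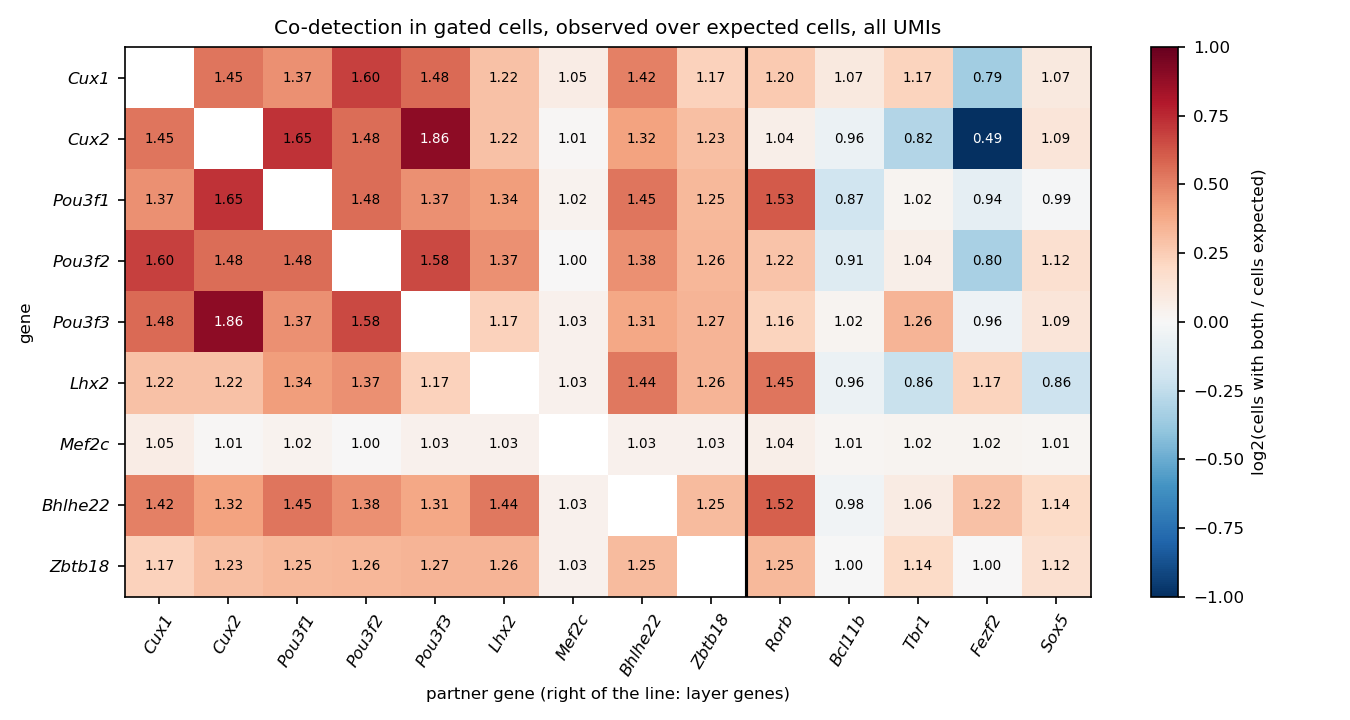
Ratio of the cells holding both genes to the cells expected under independent detection within each library, all UMIs, for pairs of the 9 genes (left of the line) and for each gene with 5 layer genes (right); colour is log2 of the ratio. Every pair on the left is at or above 1.00, Mef2c is near 1 with all partners, and Cux2 with Fezf2 at 0.49 is the lowest.

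Levels in other cells were read by marker gates: 190 inhibitory, 101 astrocyte, 39 oligodendrocyte lineage, 17 microglia and 28 vascular cells over all libraries. Free RNA in droplets gives such cells UMIs of genes they do not express. For comparison, the excitatory neuron genes Neurod6, Tbr1 and Neurod2 stood at 23.3%, 13.8% and 6.71% of their excitatory level in the inhibitory gate, which itself limits Neurod2, and at 32.0%, 33.2% and 28.5% in the astrocyte gate. Zbtb18 stood at 426 CPM (399 to 455) in excitatory cells, 65.8 CPM in inhibitory cells (15.4% of the excitatory level) and 123 CPM in astrocyte-gate cells (28.8%), within the range of these 3 genes. In the vascular gate it stood at 394 CPM (275 to 548), 92.5% of its excitatory level, in 28 cells. It rested there on 35 UMIs, 31 of them from 3 WT2 cells (711 CPM), with 3 in WT1 and 1 in cKO (27.95 CPM). It was detected in 61.8% of excitatory cells (median 3376 UMIs) and 13.7% of inhibitory cells (median 3007 UMIs). Bhlhe22 stood at 31.3% of its excitatory level in inhibitory cells, above that range, and 29.1% in the astrocyte gate, within it. Mef2c was at 35.4% in the astrocyte gate, just above the range, and at 44.8% or 1823 CPM in the inhibitory gate, well above it. In the oligodendrocyte lineage, microglia and vascular gates it stood at 59.1%, 50.5% and 76.6%, where Neurod6 stood at 57.1%, 40.6% and 55.0%. Its vascular level ran from 1845 CPM in cKO to 4404 CPM in WT2. The Mef2c level in the oligodendrocyte lineage gate ran from 947 CPM in WT2 to 4961 CPM in the 11 cells of WT1.

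The POU genes, Lhx2 and the Cux genes were less restricted against the astrocyte gate, at 57.2% (Pou3f1) to 110% (Pou3f2) of their excitatory level. In the inhibitory gate Pou3f1, Pou3f2 and Lhx2 stood at 40.1%, 34.8% and 35.1%, under Mef2c at 44.8%. Pou3f2 stood at 134 CPM (119 to 151) in excitatory cells and 147 CPM (106 to 199) in the astrocyte gate, and Lhx2 at 74.95 CPM (63.7 to 87.6) and 70.1 CPM (42.8 to 108), so neither pair differed beyond counting error. In inhibitory cells both were lower, at 46.8 CPM (32.0 to 66.0) for Pou3f2 and 26.3 CPM (15.6 to 41.6) for Lhx2. Pou3f3 ranged from 73.1 CPM in inhibitory to 94.6 CPM in astrocyte-gate cells around 87.8 CPM in excitatory cells, with overlapping intervals. Pou3f1 stood at 135 CPM in excitatory, 54.1 CPM in inhibitory and 77.1 CPM in astrocyte-gate cells. Cux1 did not differ beyond counting error between inhibitory (84.8 CPM, 64.4 to 110) and excitatory cells (89.2 CPM, 76.9 to 103), and was higher in the oligodendrocyte lineage gate (165 CPM, 106 to 245), and highest in the microglia gate (343 CPM, 171 to 613), the last from 11 UMIs in 17 cells. Cux2 stood at 52.2 CPM in excitatory, 30.7 CPM in inhibitory and 42.1 CPM in astrocyte-gate cells. In inhibitory cells, which NEX-cre does not target, the log2 ratio of cKO over WT for Mef2c, without TMM factors, was -0.09 (-0.26 to 0.07), with -0.48 against WT1 and 0.38 against WT2, so cKO lay between WT mice that differed by -0.86. The Zbtb18 ratio there was -0.82 (-1.83 to 0.01), with -1.37 against WT1 and 0.04 against WT2.

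**Figure D5:**
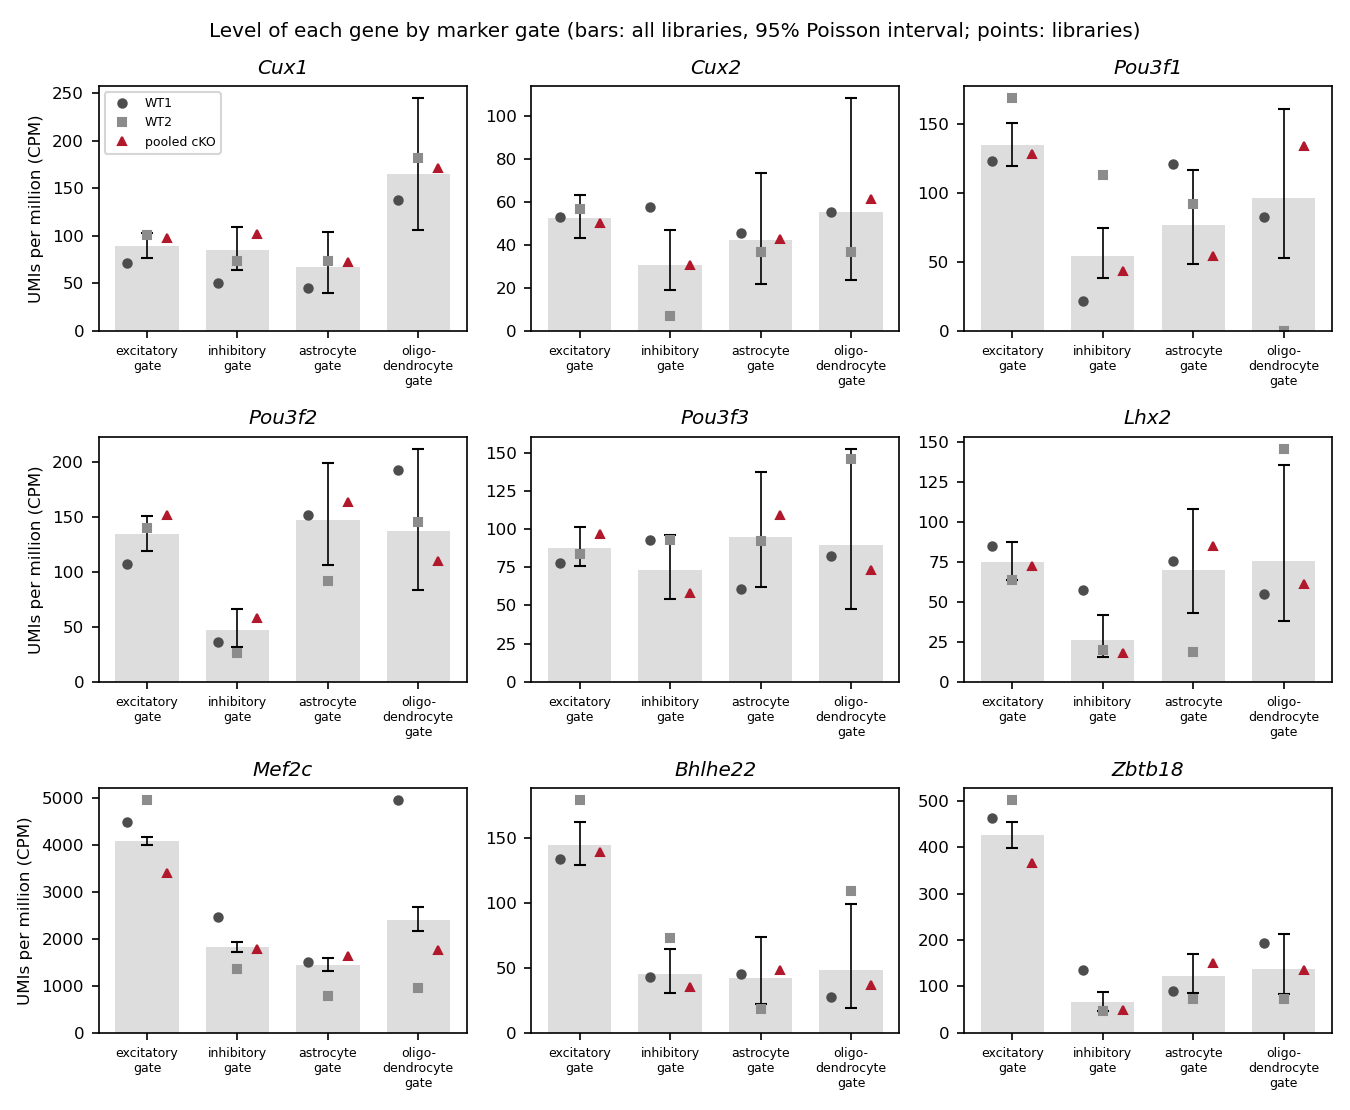
Level of each gene in CPM by marker gate; grey bars show all libraries together with 95% exact Poisson intervals, and points show WT1, WT2 and pooled cKO. Of the 4 gates drawn, Zbtb18 and Bhlhe22 are highest in the excitatory gate, whereas Pou3f2 and Lhx2 stand as high in the astrocyte gate, at 147 and 70.1 CPM, as in the excitatory gate.

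The genes most like each member were sought over 13 sums of cells by gate and library, on log2(CPM + 10), among 5797 genes with at least 100 UMIs. Zbtb18 was most like 3110047P20Rik (Pearson r of 0.94) and Sox5 (0.92), a factor of deep layer neurons, and Mef2c most like Dok4 (0.90) and Nudt4 (0.88). Pou3f1 was closest to Dync1i1 (0.80) and to Sla (0.74), which is a gate gene. The best partners of the others were Sltm (0.89) and Rnf167 (0.89) for Cux1, Map7d1 (0.87) and Rbmxl1 (0.78) for Cux2, Stra13 (0.81) and Immt (0.78) for Pou3f2, Chordc1 (0.99) and Prnp (0.97) for Pou3f3, Lonp2 (0.92) and Arl13b (0.91) for Lhx2, and Prpf4 (0.79) and Gga2 (0.79) for Bhlhe22. The sums share libraries and depth, and these 7 members rest on 153 to 376 UMIs each.

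Related genes were read from lists in the same gated cells. Of 8 paralogs of the members, 4 had at least 30 UMIs. Mef2a and Mef2d, which encode the same kind of MADS-box activator as Mef2c, had ratios of 0.17 (-0.04 to 0.38) and 0.30 (-0.25 to 0.88), both above both WT mice, while the POU genes Pou2f1 and Pou6f1 had -0.13 and 0.07 on few UMIs. Mef2a stood at 337 CPM in WT1, 307 CPM in WT2 and 387 CPM in cKO.

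Of 14 other upper layer genes, 12 had at least 30 UMIs, with 4 below both WT mice, 5 above both and a median ratio of -0.02. Over all genes tested 26.3% were below both WT mice and 40.5% above both. Inhba, a subunit of activin, had -0.56 (-1.07 to -0.09) and Rorb -0.50 (-0.84 to -0.18), both below both WT mice. Inhba stood at 70.8 CPM (51 UMIs) in WT1, 110 CPM (45 UMIs) in WT2 and 60.2 CPM (59 UMIs) in cKO. At the other end Tle1, a corepressor, had 0.47 (-0.22 to 1.22) and Cited2, a transcriptional cofactor, had 0.39 (-0.29 to 1.12), and no gene of the list had 0.5 or more.

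Of 14 deep layer genes, 13 had at least 30 UMIs, with 6 below both WT mice, 4 above both and a median of -0.12. The shares over all genes tested were 26.3% below both and 40.5% above both. Nr4a2 had -0.97 (-1.34 to -0.62) and Bcl11b -0.56 (-0.75 to -0.37), whereas Ctgf, a subplate gene, had 0.73 (-0.13 to 1.76) and Etv1, a layer 5 factor, 0.66 (0.07 to 1.32). Of 19 other cortical transcription factors, 18 had at least 30 UMIs, with 7 below both WT mice, 4 above both and a median of -0.04, beside the same shares over all genes. Neurod6, whose locus drives the Cre, had -0.60 (-0.77 to -0.44) and Klf9 -0.52 (-0.93 to -0.14), whereas Sox4, a factor of immature neurons, had 0.37 (0.22 to 0.52) and Nfib 0.31 (0.15 to 0.48). Over these lists the ratios of Mef2c and Zbtb18 were within the range of other cortical factors, and 8.55% and 11.6% of all genes tested had a lower ratio. In pooled sums, fewer cells of a type and less RNA per cell cannot be told apart.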

How the data were processed

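The deposited file is a matrix of raw UMI counts (genes by cell barcodes), which the authors produced from their reads with STAR and Drop-seq software on mm10; the gene annotation is not given in the sources used here, and hg19 is also named in the submitters' processing notes. WT1 and WT2 cells were mapped to their mice by name, and cKO cells were pooled. The members and lists were chosen with earlier results of these data known. Counts were summed over gated cells, scaled with TMM factors (edgeR 4.0.16), and log2 ratios used a prior count of 2. Thinning used the expected value over draws of 1000 UMIs, and 2 cKO cells below that depth were left out. No doublet caller was run. A gene counted as past the size threshold at a log2 ratio of 0.5 or more, or -0.5 or less, beyond both WT mice. Gene bodies came from GENCODE vM21, with 18779 of 19092 symbols matched. Named genes were the members, the 2 lowest and 2 highest of each list, the 2 best partners of each member, the 3 highest and 3 lowest pairs, and Top1. Rorb, Fezf2 and the co-detection with layer genes were chosen after values were seen. Ratio scripts were tested on simulated data. Alternatives varied scaling (DESeq2 1.42.0 size factors), gates, mitochondrial limits, depth, prior count and libraries. A gene that the rule for named genes picks is not reported here.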

Additional observations from a re-analysis of the deposited data

How the results depend on the processing

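Over 17 alternatives the ratios of Mef2c (-0.93 to -0.29) and Zbtb18 (-0.56 to -0.37) stayed below 0, and that of Pou3f3 stayed above 0 (0.0092 to 0.73). The cKO levels of Mef2c and Zbtb18 stayed below each WT mouse that the alternative kept. The other 6 members changed sign in at least 1 alternative. Leaving out 1 WT mouse moved the median ratio of the members between -0.22 and -0.025, the number below WT between 4 and 6, the number at -0.5 or less between 0 and 2, and the long minus short difference between -0.042 and -0.13. The median was 0.055 with the gate on Neurod6, Tbr1, Slc17a6 and Slc17a7, 0.28 at a 5% mitochondrial limit, -0.038 without KO2 cells and -0.50 without KO3 cells. The number below both WT mice was 5 with DESeq2 size factors, with 1 UMI of the gate genes and without KO3 cells. The number at -0.5 or less was 0 without TMM factors, with 3 UMIs of the gate genes, at 5% mitochondrial UMIs, without KO2 cells and after thinning, 2 with 1 UMI of the gate genes and with no mitochondrial limit, and 5 without KO3 cells. The long minus short difference was -0.30 with 3 UMIs of the gate genes, -0.13 with no UMI of Gad1 and Gad2, -0.25 with the other gate, 0.12 without the deepest WT1 cells, -0.90 at 5% mitochondrial UMIs, -0.22 with no limit, -0.14 without KO3 cells, 0.15 without glial or vascular marker cells and 0.21 after thinning. The mean number of members detected, cKO minus WT, was -0.12 after thinning, -0.44 without thinning, 0.024 at 5% mitochondrial UMIs and -0.36 without KO3 cells. Of all genes, 29.9% lay below both WT mice with a minimum of 100 UMIs and 21.2% with a minimum of 1 UMI, and 7.64% and 10.2% also had a ratio of -0.5 or less. Leaving out glial or vascular marker cells and reading detection without thinning were chosen after the data had been seen. The cause of these changes was not tested. For 7 of the members, 110 to 305 UMIs over all gated cells limit the ratios. No paired analysis was possible because the cKO cell labels could not be matched to the cKO mice.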
